A study of Homo sapiens with 40 samples.

Results

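The 10 genes described here are transcriptional readouts and brakes of the ERK pathway: EGR1, FOS, DUSP6, DUSP4, SPRY1, SPRY2, SPRY4, SPRED1, ETV4 and ETV5. They were chosen by gene symbol in the platform annotation, from a list drawn up with their late levels and differences from control in these 5 courses already known, so the differences and calls below describe the genes and are no independent evidence about them. They have 19 probes, of which 17 passed the filter on dim probes, and all 10 are among the 13544 genes tested. A gene is represented by its brightest passing probe.

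RNA of human embryonic stem cells was measured on 40 Illumina bead arrays, 1 array a day in each of 5 time courses. H1 cells carried a control lentivirus or a lentivirus encoding an shRNA (a short hairpin RNA that lowers its target's mRNA) against NANOG, OCT4 or SOX2, the transcription factors that maintain the undifferentiated state. H9 cells, a second embryonic stem cell line, carried the OCT4 shRNA and had no control course. All cells grew on Matrigel in mTeSR medium, were transduced with polybrene present and were sampled on days 0 to 7, and the NANOG shRNA array of day 7 was left out because its values are on another scale. Levels are log2 of background-corrected intensity, on which 6.57 is the background level, and levels of different genes are not compared with each other. The days of an arm stand in for replicates: days 4 to 7 are the late days and days 0 and 1 the start. A p-value therefore measures the scatter between days within a culture course, pooled over all 5 courses, and not between independent cultures.

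ERK is the last kinase of the cascade that runs from growth factor receptors through RAS, RAF and MEK. Human embryonic stem cells are kept in medium rich in FGF2, a ligand that feeds this cascade. Within minutes of ERK activation cells transcribe immediate early genes such as EGR1, a zinc finger transcription factor, and FOS, a subunit of AP-1. Slower targets are the ETS factors ETV4 and ETV5 and the inhibitors that close the loop. DUSP6 and DUSP4 are phosphatases of ERK, in the cytoplasm and the nucleus respectively, Sprouty proteins (SPRY1, SPRY2, SPRY4) act between receptor and RAF, and SPRED1 restrains RAS together with neurofibromin.

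Promoter windows were matched in the RefSeq promoter table (GRCh38.p14) for 7 of the 10 genes. DUSP4, ETV4 and ETV5 are named only. The 250 bases before the transcription start are printed for the immediate early genes EGR1 and FOS, which moved differently here, and for SPRY4, which moved with ETV4. Capitals mark CArG boxes, the serum response factor motif, and TGACG or its reverse complement CGTCA, the core of the cyclic AMP response element. Both strands were searched, and the motifs do not overlap in these windows. Positions are EGR1 chr5:138465229-138465478 on the plus strand, FOS chr14:75278578-75278827 on the plus strand and SPRY4 chr5:142324248-142324497 on the minus strand.
EGR1: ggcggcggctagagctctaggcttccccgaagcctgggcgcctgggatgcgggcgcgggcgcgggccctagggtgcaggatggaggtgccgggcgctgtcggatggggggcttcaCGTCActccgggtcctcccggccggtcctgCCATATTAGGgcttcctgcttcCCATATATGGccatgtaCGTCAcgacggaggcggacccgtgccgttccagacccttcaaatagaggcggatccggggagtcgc
FOS: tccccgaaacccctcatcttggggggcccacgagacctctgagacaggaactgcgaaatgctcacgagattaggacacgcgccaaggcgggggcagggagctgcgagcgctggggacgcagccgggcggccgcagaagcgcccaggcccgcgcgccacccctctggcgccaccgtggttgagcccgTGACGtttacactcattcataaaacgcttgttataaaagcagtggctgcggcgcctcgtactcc
SPRY4: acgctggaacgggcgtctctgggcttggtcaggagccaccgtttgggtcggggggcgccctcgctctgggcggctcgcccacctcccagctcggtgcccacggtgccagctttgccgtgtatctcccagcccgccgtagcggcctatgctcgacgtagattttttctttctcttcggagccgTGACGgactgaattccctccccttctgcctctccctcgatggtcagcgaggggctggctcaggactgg
The EGR1 window holds 2 CArG boxes and 2 CGTCA matches, whereas the FOS and SPRY4 windows hold 1 TGACG match each and 0 CArG boxes. Bases beyond these 250 were not searched, so the 0 does not mean that FOS or SPRY4 lacks a CArG box further away. Of all 35116 windows of this length in the table, 1.16% hold a CArG box and 21.2% hold TGACG or CGTCA. The ETS-type hexamer TTCCGG or its reverse complement CCGGAA, which 14.5% of all windows hold, occurs in 1 window of SPRY1 and 1 window of SPRY2 and in none of the windows of the other 5 genes.

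The targeted genes moved as the labels name them, and some were also lower in the arm of another target. POU5F1, which encodes OCT4, was lower than in control cells on the late days of the OCT4 shRNA arm (log2 difference -5.91, adjusted p = 5.7e-18). NANOG was lower in its own arm (-2.11, adjusted p = 6.16e-09), as was SOX2 in its own (-1.99, adjusted p = 3.68e-06). With OCT4 shRNA in H1, NANOG (-2.22, adjusted p = 1.44e-11) and SOX2 (-3.55, adjusted p = 9.32e-13) were lower too. With NANOG shRNA, POU5F1 was lower (-1.18, adjusted p = 0.00358). The OCT4 and NANOG shRNA arms are therefore not losses of 1 factor each. With SOX2 shRNA, POU5F1 (-0.06) and NANOG (0) were not called. In H9 cells POU5F1 was at 11.85 on day 0 and at 8.54 on day 7, whereas in H1 it went from 12.33 to 6.46. Markers of other cell types also moved. The summed intensity of 8 trophoblast and amnion markers lay between 26800 and 39317 on the late OCT4 shRNA arrays of H1, with all 8 above background, between 1084 and 1167 in control cells, and between 1011 and 1125 in H9 cells, where 7 of the 8 were above background on no late array. That of 4 measured neuroectoderm markers of 6 lay between 2078 and 3378 on the late NANOG shRNA arrays, against 690 to 1113 in control cells, and in H9 cells it was 758 to 774 on days 0 and 1 and 1268 to 2169 late. That of 5 measured mesoderm markers of 6 lay between 2639 and 6827 late with OCT4 shRNA in H1, between 648 and 708 in control cells and between 679 and 741 in H9. For 6 fibroblast markers the late ranges were 6279 to 24976, 6806 to 9343 and 6468 to 7346 in the same order. THY1, 1 of these 6, followed a course close to that of ETV4 over the H1 arrays, and ETV4 fell with OCT4 shRNA (both below). The sum therefore does not show that all 6 moved alike. The 7 measured pluripotency markers of 8 summed to 10320 to 26491 with OCT4 shRNA and to 46729 to 55381 in control cells. Late with NANOG shRNA they summed to 32645 to 42188, and with SOX2 shRNA to 37106 to 41499. Trophoblast and amnion markers summed to 1167 to 1433 late with NANOG shRNA and to 1079 to 2672 with SOX2 shRNA. For the mesoderm markers these late ranges were 767 to 1436 and 656 to 767. The part of these cell types in the results below was not tested, and fewer cells of a type and less RNA per cell cannot be told apart in bulk RNA.

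**Figure D1:**
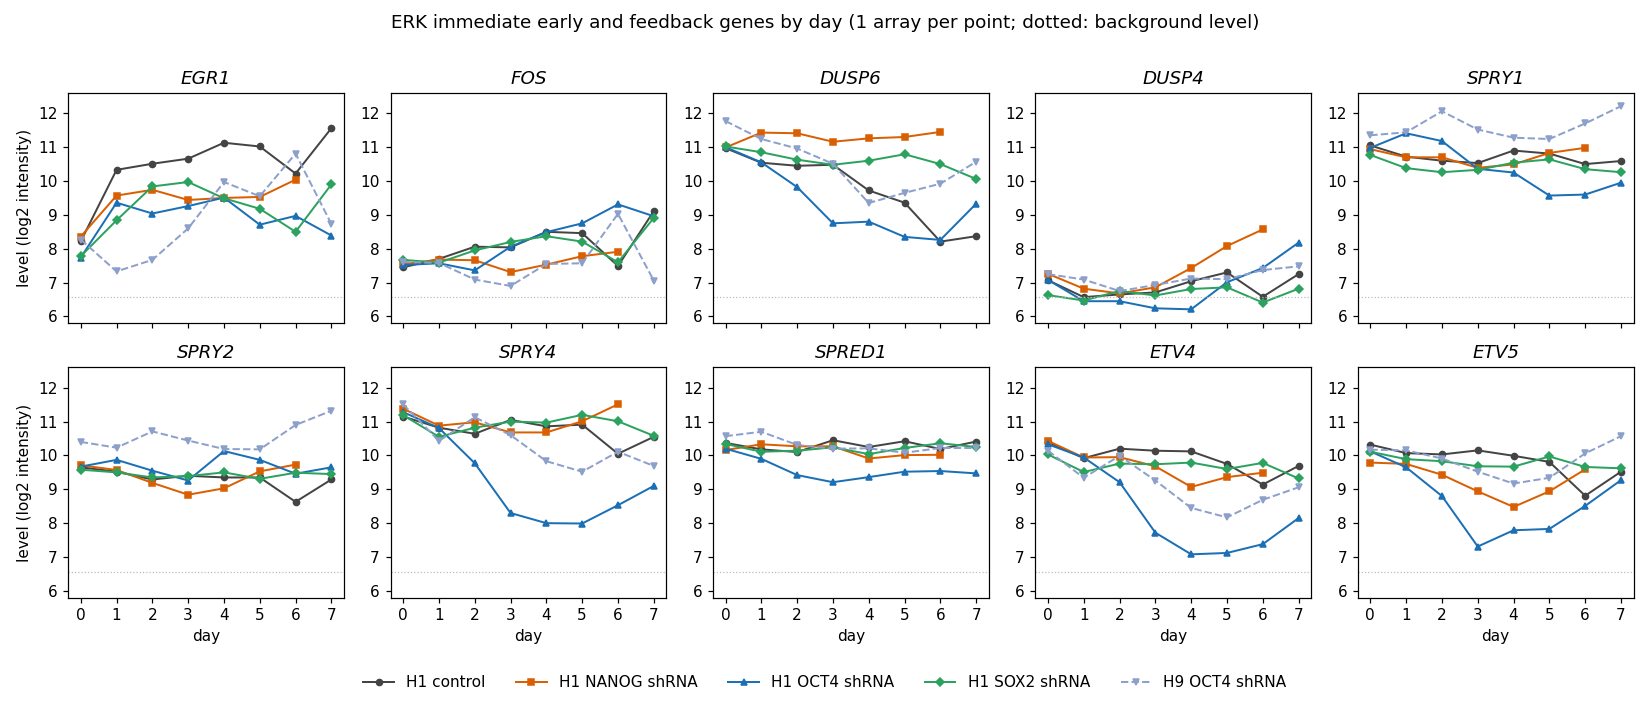
Level of each of the 10 genes (log2 intensity, vertical axis) by day (horizontal axis). Each point is 1 array, colours and markers give the 5 time courses and the dotted line is the background level of 6.57. The OCT4 shRNA course of H1 cells dips after day 2 for ETV4, ETV5 and SPRY4 and turns up again by day 7, and the control course climbs for EGR1 and descends for DUSP6.

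Control cells did not hold these genes at a constant level over the week. DUSP6, the ERK phosphatase, was at 10.97, 10.54, 10.45, 10.48, 9.72, 9.36, 8.21 and 8.37 on days 0 to 7. All 4 late control arrays lay below both arrays of days 0 and 1. It fell by 1.84 ± 0.34 (SE) on the log2 scale, which is 3.58-fold (limma, adjusted p = 0.00738), and it is the 1 gene of the 10 called in a comparison that called 0.532% of all genes. Without the control array of day 0 the fall was -1.62 (adjusted p = 0.252), and without that of day 1 it was -2.05 (adjusted p = 0.0607). Leaving out day 6 of all arms gave -1.60 (adjusted p = 0.0538). The second DUSP6 probe differed by -1.40 and was not called.

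EGR1 was at 8.22 in control cells on day 0 and at 10.33, 10.51, 10.66, 11.13, 11.02, 10.22 and 11.56 on days 1 to 7. The day 0 array stood below every later one, and the step of 2.12 from day 0 to day 1 made up most of the climb. Day 0 was also the lowest EGR1 array of each H1 knockdown arm. The step to day 1 there was 1.21 with NANOG, 1.62 with OCT4 and 1.06 with SOX2 shRNA. With day 1 counted in the start, the change of 1.71 ± 0.51 in control cells was not called (adjusted p = 0.123). It was 0.65 without the control array of day 0 and 2.77 without that of day 1, and it was called without day 1 of all arms (adjusted p = 0.0386) and with array weights (1.79, adjusted p = 0.0255). The other immediate early gene, FOS, was at 7.45 on day 0 and 9.11 on day 7, with 7.49 on day 6, and its change of 0.82 ± 0.36 was not called either (adjusted p = 0.326, and 0.0201 without day 6 of all arms). The other 7 genes differed by -0.66 to 0.22, the lowest for ETV5 and the highest for DUSP4, and none was called. The median change of the 10 genes was -0.29 against 0.01 for all genes.

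The control array of day 6 was the lowest of the late control arrays for 10 of 10 genes, a day that was the lowest for 29.4% of all genes. SPRY2 was at 8.63 on that day against 9.29 to 9.35 on the other late days, and ETV5 at 8.81 against 9.52 to 9.99. Every difference from control on the late days includes this array.

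With OCT4 shRNA in H1 cells, 6 of the 10 genes were lower than in control cells on the late days and 1 was higher, in a comparison that called 47.8% of all genes (24.2% lower and 23.6% higher). The median difference of the 10 was -0.85, against 0 for all genes. The ETS factors ETV4 and ETV5, the inhibitors SPRY4, SPRY1 and SPRED1 and the immediate early gene EGR1 were lower, and SPRY2 was higher.

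ETV4, an ETS transcription factor induced by FGF signalling, was at 10.33, 9.94, 9.21, 7.72, 7.08, 7.12, 7.38 and 8.15 on days 0 to 7 of the OCT4 shRNA course. In control cells the late days read 10.12, 9.75, 9.14 and 9.69. The late groups did not overlap, with means of 7.43 ± 0.49 (SD, n = 4) and 9.68 ± 0.40 (SD, n = 4). The log2 difference was -2.24 ± 0.26 (SE), which is 4.73-fold (adjusted p = 1.3e-08), and that of the second ETV4 probe was -2.21.

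SPRY4, a Sprouty inhibitor, ran close to ETV4. The OCT4 shRNA arrays read 11.28, 10.81, 9.77, 8.30, 8.00, 7.99, 8.53 and 9.10 on days 0 to 7, and the late control arrays 10.86, 10.91, 10.05 and 10.55. Each late knockdown array was below each late control array. The difference was -2.19 ± 0.27, or 4.55-fold (adjusted p = 5.39e-08). A second probe of the gene differed by -1.79, and 2 dim ones by -0.45 and -0.06, and the probes averaged gave -1.12 (adjusted p = 1.18e-06).

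ETV5, the close relative of ETV4, had its lowest array on day 3 and was back within the control range by day 7. It was at 10.12, 9.65, 8.80, 7.31, 7.79, 7.83, 8.51 and 9.27 on days 0 to 7, against 9.99, 9.81, 8.81 and 9.52 in the late control arrays. The late groups therefore overlapped. The overlap and the return into the control range both rest on the control array of day 6 (8.81). The other late control arrays were all above 9.27. Over the late days ETV5 was lower, with a difference of -1.19 ± 0.30 (adjusted p = 0.00162), and its dimmer second probe gave -0.57.

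SPRED1, which brakes RAS, was lower on every late array. The late OCT4 shRNA arrays read 9.36, 9.52, 9.54 and 9.47 and the late control arrays 10.25, 10.42, 10.19 and 10.41. The groups did not overlap, and the difference was -0.85 ± 0.10, or 1.80-fold (adjusted p = 8.03e-09).

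The other Sprouty genes went opposite ways. SPRY1 first stood above control, at 11.41 against 10.72 on day 1 and 11.18 against 10.60 on day 2, and then below it, at 9.57 against 10.81 on day 5 and 9.60 against 10.50 on day 6. Its late difference was -0.86 ± 0.19 (adjusted p = 0.000302). SPRY2 was at 10.13, 9.87, 9.46 and 9.65 on the late knockdown arrays and at 9.35, 9.35, 8.63 and 9.29 on the control arrays, which did not overlap with them. It was higher by 0.62 ± 0.19 (adjusted p = 0.00685). Without the control array of day 6 that difference was 0.45 (adjusted p = 0.0544), and within the knockdown arm itself the late and first days of SPRY2 differed by 0.00 ± 0.23 (adjusted p = 0.99).

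EGR1 was at 9.51, 8.71, 8.97 and 8.39 on the late OCT4 shRNA arrays and at 11.13, 11.02, 10.22 and 11.56 in control cells. The groups did not overlap, and the EGR1 difference was -2.09 ± 0.42, or 4.26-fold (adjusted p = 9.64e-05). Within the knockdown arm EGR1 differed between late and first days by 0.34 ± 0.51 (adjusted p = 0.632), where the first days hold its step of 1.62 from day 0 to day 1. The control arm's own change was 1.71. The difference between these changes, -1.36 ± 0.72, was not called (adjusted p = 0.182). It was -0.31 without the control array of day 0 and -2.42, called, without that of day 1 (adjusted p = 0.0244). FOS, by contrast, was at 8.49, 8.75, 9.31 and 8.96 late in the knockdown arm and at 8.50, 8.46, 7.49 and 9.11 in control cells. It rose by 1.33 ± 0.36 within the arm (adjusted p = 0.00311, and 0.0523 without day 0 of all arms), and its late difference from control, 0.49 ± 0.29, was not called, but was without the control array of day 7 (0.73, adjusted p = 0.0476).

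Between the first and the late days of the OCT4 shRNA arm 7 of the 10 genes were called, where 41.7% of all genes were: FOS rose, and DUSP6, SPRY1, SPRY4, SPRED1, ETV4 and ETV5 fell. DUSP6 fell by 2.09 ± 0.34 (adjusted p = 7.63e-06), and the control arm's fall was -1.84. The late levels of 8.80, 8.35, 8.26 and 9.33 overlapped with the control levels of 9.72, 9.36, 8.21 and 8.37. The late difference was -0.23 (95% interval -0.79 to 0.33), a mean over unlike days. On day 3 the knockdown array of DUSP6 stood at 8.75 against 10.48 in control cells. Its difference from the same-day control array was -0.92 on day 4 and -1.01 on day 5. On days 6 and 7 it was 0.06 and 0.95. DUSP4, the nuclear phosphatase, was at or below 6.45, under the background level, on days 1 to 4 and at 8.18 on day 7, and its late difference was 0.16 ± 0.25. Without the knockdown array of day 4 the change of DUSP4 within the arm was 0.77 and called (adjusted p = 0.0174).

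**Figure D2:**
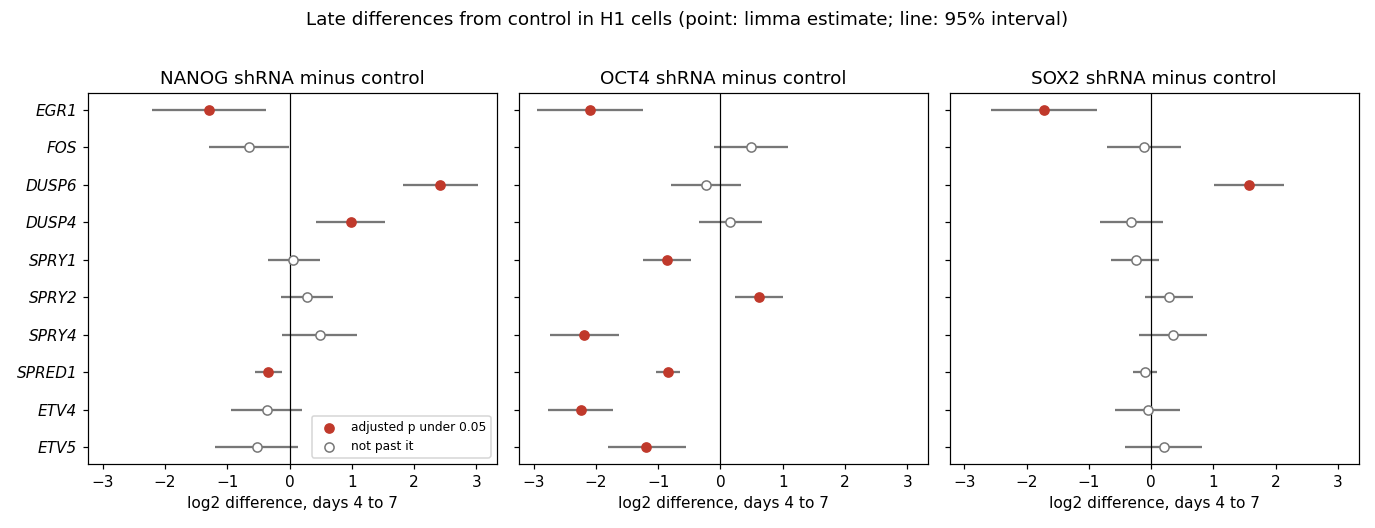
Late difference from control (log2, horizontal axis) for each gene in the NANOG, OCT4 and SOX2 shRNA arms of H1 cells. Points are limma estimates, lines their 95% intervals, and filled points have an adjusted p under 0.05. DUSP6 lies at 2.42 with NANOG shRNA and 1.57 with SOX2 shRNA but at -0.23 with OCT4 shRNA, and ETV4, SPRY4 and ETV5 lie clearly below 0 with OCT4 shRNA.

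Day by day, the OCT4 shRNA course separated from control within the first days. EGR1 was at least 2-fold below the control array of the same day from day 2 onward, and ETV4 and SPRY4 were so from day 3 onward. ETV5 was at least that far below on 4 days, but no longer on days 6 and 7. The low point was then partly left again. By day 7 ETV5 stood 1.96 above its lowest level of day 3, SPRY4 1.12 above that of day 5, ETV4 1.07 above that of day 4 and DUSP6 1.07 above that of day 6. DUSP4 was 1.96 above its lowest level, 6.21 on day 4, which lies below the background level. These are differences between single arrays, with no test.

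Set against the control arm's own drift, the OCT4 shRNA change was larger for 4 of the 10 genes, all of them lower, where 23.7% of all genes were called and 11.9% were called lower. The change beyond control was -2.24 ± 0.47 for SPRY4 (adjusted p = 0.000656) and -2.22 ± 0.45 for ETV4 (adjusted p = 0.000431). With a gene's probes averaged the SPRY4 value was -1.13 (adjusted p = 0.00396), since its second probe gave -1.71 and its 2 dim ones -0.55 and 0.00. It was -1.17 ± 0.33 for SPRY1 (adjusted p = 0.00806) and -0.62 ± 0.16 for SPRED1 (adjusted p = 0.00549). The SPRY1 value was -1.0 without the control array of day 1 (adjusted p = 0.0623), -0.96 without the knockdown array of that day (adjusted p = 0.0726) and -0.79 without day 1 of all arms (adjusted p = 0.247). The SPRED1 value was -0.47 without the knockdown array of day 0 (adjusted p = 0.0794) and -0.57 without day 0 of all arms (adjusted p = 0.0802). ETV5 fell by 1.54 ± 0.37 within the arm (adjusted p = 0.00119, and 0.0605 without day 0 of all arms), but its change beyond control of -0.88 ± 0.53 was not called.

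**Figure D3:**
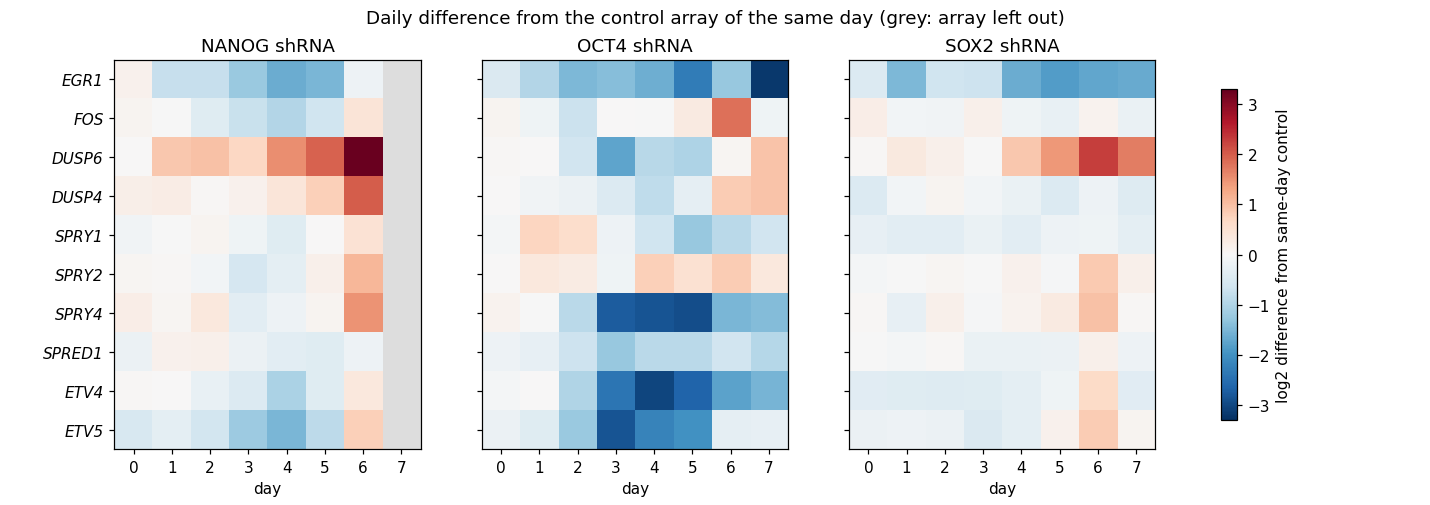
Difference of each knockdown array from the H1 control array of the same day (log2, colour scale from -3.3 in blue to 3.3 in red), genes in rows and days in columns. The left-out NANOG shRNA array of day 7 is grey. ETV4, ETV5 and SPRY4 are blue from day 2 with OCT4 shRNA, with ETV5 near 0 on days 6 and 7, and DUSP6 is red on the late days with NANOG and SOX2 shRNA.

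NANOG shRNA gave 4 calls among the 10 genes on the late days, 2 higher and 2 lower, where 15.3% of all genes were called (7.8% higher and 7.49% lower). The median difference was -0.14, against 0 for all genes. The clearest was DUSP6, which stayed high while it fell in control cells.

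DUSP6 was at 10.99, 11.43, 11.41, 11.16, 11.26, 11.30 and 11.45 on days 0 to 6 of the NANOG shRNA course. Its 3 late arrays were above every late control array (9.72, 9.36, 8.21 and 8.37). The difference was 2.42 ± 0.30, or 5.36-fold (adjusted p = 5.78e-07), and the second probe gave 2.55. Within the arm the late and first days differed by 0.13 ± 0.36, and the control arm's fall was -1.84. The change beyond control, 1.97 ± 0.49, was called (adjusted p = 0.04, 1.11% of all genes called) but was lost in 16 of 55 alternatives. Leaving out the control array of day 0, 1, 6 or 7 ended it, with values of 1.73 to 2.18 and adjusted p of 0.07 to 0.222. So did leaving out the NANOG shRNA array of day 0, 1, 5 or 6, with values of 1.75 to 2.18 and adjusted p of 0.0654 to 0.203. With day 0 of all arms left out it was 1.53 (adjusted p = 0.593). NANOG itself was already low on days 0 and 1 of this arm, at 7.61 against 9.08 in control cells. It changed beyond control by -0.64, which limma did not call (adjusted p = 0.462). A change beyond control in this arm therefore leaves out any difference that was present from the start.

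DUSP4 was at 7.43, 8.08 and 8.57 on days 4 to 6 with NANOG shRNA and at 7.04, 7.30, 6.58 and 7.25 late in control cells. The groups did not overlap, and DUSP4 was higher by 0.98 ± 0.27 (adjusted p = 0.0105). Without the NANOG shRNA array of day 6 the difference was 0.71 (adjusted p = 0.14), and with day 5 or day 6 left out in all arms it was 1.04 (adjusted p = 0.0697) and 0.56 (adjusted p = 0.327). DUSP4 was also the 1 gene of the 10 called over time in this arm, where 10.8% of all genes were called. It rose by 0.98 ± 0.32 (adjusted p = 0.0435), a call lost in 16 of 55 alternatives, with adjusted p up to 0.343.

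EGR1 was at 9.50, 9.53 and 10.04 on the late NANOG shRNA arrays, below the 4 control arrays of 10.22 to 11.56. The difference was -1.29 ± 0.45 (adjusted p = 0.0476), a call that 25 of 55 alternatives ended, with differences from -1.47 to -1.10 under those 25 and adjusted p up to 0.265. The highest of these control arrays, 11.56, is that of day 7, which the NANOG shRNA arm lacks. Without day 7 of all arms the EGR1 difference was -1.10 (adjusted p = 0.0983), and without that control array alone -1.10 (adjusted p = 0.14). SPRED1, at 9.91, 10.01 and 10.02 against 10.19 to 10.42, was also lower (-0.34 ± 0.10, adjusted p = 0.0219). That call was lost in 9 alternatives, all of which left out a late array of the arm or of control cells or a late day of all arms, with adjusted p up to 0.153. FOS differed by -0.65 ± 0.32, ETV5 by -0.53 ± 0.33, ETV4 by -0.37 ± 0.28 and the Sprouty genes by 0.06 to 0.48, none of them called. The FOS difference was called without the control array of day 6 (-0.95, adjusted p = 0.0338), and with array weights those of FOS (-0.73, adjusted p = 0.0121) and ETV5 (-0.71, adjusted p = 0.00631) were called.

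All 10 genes were at their lowest late level with NANOG shRNA on day 4, a day that was the lowest for 37.5% of all genes. ETV5 went from 8.48 on that day to 8.94 and 9.59, and SPRY4 from 10.68 to 11.01 and 11.51. On day 6, SPRY4, SPRY2 and DUSP4 stood at least 2-fold above the control array of that day, which was the low control array described above, and on no earlier day.

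SOX2 shRNA gave 2 calls among the 10, 1 in each direction, where 8.21% of all genes were called (3.54% higher and 4.67% lower). DUSP6 was at 10.60, 10.79, 10.50 and 10.06 on the late days, above all 4 control arrays. It was higher by 1.57 ± 0.28, or 2.97-fold (adjusted p = 0.000251), and its second probe by 1.61. EGR1 was at 9.49, 9.18, 8.50 and 9.90, below all 4 control arrays, with a difference of -1.72 ± 0.42, or 3.29-fold (adjusted p = 0.0069). Without day 5 of all arms the EGR1 difference was -1.67 (adjusted p = 0.0785).

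EGR1 differed from the same-day control array by -1.49 on day 1, by -0.67 and -0.69 on days 2 and 3, and by -1.64 to -1.85 on days 4 to 7. DUSP6 was at least 2-fold above the same-day control from day 5 onward. Within the SOX2 shRNA arm limma called 0 of the 10 genes between the first and the late days, and 0 had an unadjusted p under 0.05, where 6.91% of all genes were called. ETV4 was at 9.79, 9.60, 9.78 and 9.32 late, inside the control range from 9.14 to 10.12, with a difference of -0.05 (95% interval -0.58 to 0.47). SPRY4 differed by 0.35 (-0.20 to 0.90) and SPRED1 by -0.10 (-0.29 to 0.10). No change beyond control was called for any of the 10, in a comparison with 0.0295% of all genes called, and 1 of the 10 had an unadjusted p under 0.05. DUSP6 had the largest one, 1.39 ± 0.48 (adjusted p = 0.399). SOX2 itself was already low at the start of this arm and changed beyond control by -0.02. The comparison therefore cannot show a difference that was present from the start.

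The knockdowns were also set against each other directly. For DUSP6 the late means in H1 ran from 11.34 ± 0.10 (SD, n = 3) with NANOG shRNA over 10.49 ± 0.31 (n = 4) with SOX2 shRNA to 8.92 ± 0.74 (n = 4) in control cells and 8.69 ± 0.49 (n = 4) with OCT4 shRNA. The step between the first 2 was 0.85 ± 0.30 (adjusted p = 0.0433) and was lost in 16 of 55 alternatives. The NANOG shRNA mean lacks day 7, on which DUSP6 was at its lowest with SOX2 shRNA (10.06). Without day 7 of all arms that step was 0.71 (adjusted p = 0.0649). The next step was the SOX2 shRNA difference given above, and the last step was not called. For EGR1 the order was control at 10.98 ± 0.56 (n = 4), NANOG shRNA at 9.69 ± 0.30 (n = 3), SOX2 shRNA at 9.27 ± 0.59 (n = 4) and OCT4 shRNA at 8.89 ± 0.47 (n = 4). The 3 knockdowns overlapped and none differed from another by the test (adjusted p = 0.16 to 0.596).

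NANOG shRNA against OCT4 shRNA gave 7 calls among the 10 genes, where 42.9% of all genes were called. DUSP6, SPRY4, ETV4, SPRY1, DUSP4 and SPRED1 were higher with NANOG shRNA by 2.65, 2.66, 1.87, 0.92, 0.82 and 0.51, and FOS was lower (-1.14, adjusted p = 0.00382). The DUSP4 difference was 0.55 without the NANOG shRNA array of day 6 (adjusted p = 0.142) and 0.49 without the OCT4 shRNA array of day 4 (adjusted p = 0.0928). It was 0.73 without day 5 of all arms (adjusted p = 0.112) and 0.62 without day 6 (adjusted p = 0.122). ETV5 was called as well with day as a block (0.79, adjusted p = 0.0341) and without the OCT4 shRNA array of day 7 (0.96, adjusted p = 0.016). OCT4 shRNA against SOX2 shRNA gave 6 calls, all lower with OCT4 shRNA, where 46.9% of all genes were called and 23.3% were called lower: SPRY4 by -2.54, ETV4 by -2.19, DUSP6 by -1.80, ETV5 by -1.38, SPRED1 by -0.75 and SPRY1 by -0.61. The SPRY1 difference was -0.45 without day 5 of all arms (adjusted p = 0.111). DUSP4 was called, higher, without the OCT4 shRNA array of day 4 (0.81, adjusted p = 0.00278), and FOS, higher, without the SOX2 shRNA array of day 7 (0.82, adjusted p = 0.0291). NANOG shRNA against SOX2 shRNA gave 2, where 18% were called: DUSP6, above, and DUSP4, higher by 1.3 ± 0.27 (adjusted p = 0.000612, and 0.0519 without day 6 of all arms).

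In H9 cells with OCT4 shRNA, 5 of the 10 genes changed between the first and the late days, where 26.8% of all genes were called. With no control course in H9, the shRNA and time in culture cannot be told apart, and in H1 control cells DUSP6 fell by 1.84 and EGR1 differed by 1.71 over the same days. The H9 values of SPRY1, SPRY2, SPRY4 and SPRED1 rest on moving that line's misaligned columns by 2 rows, and those of the other 6 genes do not. DUSP6 was at 11.77, 11.24, 10.96, 10.51, 9.35, 9.65, 9.92 and 10.57 on days 0 to 7, and it fell by 1.63 ± 0.34 (adjusted p = 0.000471). ETV4 was at 10.14, 9.34, 9.99, 9.26, 8.45, 8.17, 8.69 and 9.06 and fell by 1.15 ± 0.32 (adjusted p = 0.00664). Both had their lowest arrays on days 4 and 5 and stood higher on day 7, DUSP6 by 1.22 and ETV4 by 0.89 above the lowest level.

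SPRY4, at 11.51 and 10.43 on days 0 and 1 and 9.83, 9.52, 10.11 and 9.69 on the late days, fell by 1.18 ± 0.33 (adjusted p = 0.00784), and SPRED1 fell by 0.45 ± 0.12 (adjusted p = 0.00378). EGR1 was at 8.27 and 7.33 on days 0 and 1 and at 9.97, 9.55, 10.81 and 8.73 late, and it rose by 1.97 ± 0.51 (adjusted p = 0.00413). The start here is 2 arrays, and each decides some calls. Without the H9 array of day 0 the SPRY4 change was -0.64 (adjusted p = 0.321) and the ETV4 change -0.75 (adjusted p = 0.219). Without that of day 1 the EGR1 change was 1.5 (adjusted p = 0.118) and the SPRED1 change -0.39 (adjusted p = 0.072). FOS stood at 9.03 on day 6 and between 6.90 and 7.61 on the other days, and its change was not called.

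The changes of both lines under OCT4 shRNA differed for 3 of the 10 genes, where 28.2% of all genes were called. SPRY1 fell by 1.36 in H1 and differed by 0.22 in H9, where it was at 11.28, 11.24, 11.70 and 12.21 late, a difference between changes of 1.57 ± 0.33 (adjusted p = 0.000463). ETV4 changed by -1.15 in H9 and -2.70 in H1 (1.55 ± 0.45, adjusted p = 0.00897), and SPRY4 by -1.18 and -2.64 (1.46 ± 0.47, adjusted p = 0.019). Without the H9 array of day 1 these were 1.15 (adjusted p = 0.0994) and 0.92 (adjusted p = 0.21), and without the H1 OCT4 shRNA array of day 0 they were 1.36 (adjusted p = 0.0626) and 1.23 (adjusted p = 0.111). Without day 1 of all arms they were 1.35 (adjusted p = 0.104) and 1.15 (adjusted p = 0.178), and without day 5 the SPRY4 value was 1.41 (adjusted p = 0.0511). With a gene's probes averaged, the SPRY4 value was 0.55 (adjusted p = 0.153). The other genes were not called, among them EGR1 (1.62, adjusted p = 0.0922), ETV5 (1.16, adjusted p = 0.0983) and FOS (-1.12, adjusted p = 0.0964). Single arrays decided these as well. EGR1 was called without the H1 OCT4 shRNA array of day 0 (2.43, adjusted p = 0.0283) or the H9 array of day 7 (1.97, adjusted p = 0.0324), and without day 0 of all arms (2.9, adjusted p = 0.00972). ETV5 was called without the H1 OCT4 shRNA array of day 7 (1.47, adjusted p = 0.0246) and with array weights (1.32, adjusted p = 0.0293). FOS was called without the H9 array of day 6 (-1.53, adjusted p = 0.0065) and without day 6 of all arms (-1.39, adjusted p = 0.00133). The lines also differ in how low POU5F1 went and in SOX2, which changed by 1.29 in H9 and by -2.97 in H1. They differ as well in the trophoblast and amnion, mesoderm and neuroectoderm markers given above. The part of these differences was not tested.

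Over the 31 usable H1 arrays, the gene nearest to ETV4 in its course was SPRY4, and the nearest to SPRY4 was ETV4. Likeness was the root mean square difference between levels centred on each gene's mean, which was 0.33 for this pair, against a median of 0.94 for ETV4 and all other genes and 1.00 for SPRY4. THY1 and MTHFD2 (each at 0.35) were next for ETV4, and TRIM22 (0.44) and LRRC20 (0.45) for SPRY4. EGR1, the third member by range of its arm and window means (2.67), had no such near neighbour, since its 3 nearest genes were at 0.66 to 0.68. The arrays share 4 courses, so this is a description.

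Other genes of the pathway were taken from 5 lists with 114 genes, of which those passing the filter are counted here. Beside these counts, 23.6% of all genes were called higher and 24.2% lower with OCT4 shRNA, 7.8% and 7.49% with NANOG shRNA, and 3.54% and 4.67% with SOX2 shRNA. Of 23 other immediate early genes, 8 were higher and 5 lower with OCT4 shRNA, 1 and 3 with NANOG shRNA, and 2 and 0 with SOX2 shRNA. In both directions together that is 13, 4 and 2 of 23, where 47.8%, 15.3% and 8.21% of all genes were called. KLF6, a zinc finger factor, was higher by 3.21 ± 0.19 with OCT4 shRNA and JUN, the AP-1 partner of FOS, by 2.37 ± 0.24 and, with SOX2 shRNA, by 0.98. IER3 was higher by 1.66 ± 0.38 (SE) with OCT4 shRNA. Its late arrays there scattered widely, at 10.49 ± 1.54 (SD, n = 4) against 8.83 ± 0.37 (n = 4) in control cells. MYC was lower with OCT4 shRNA (-1.37) and NANOG shRNA (-1.62), as was CCN2, a secreted matrix protein (-1.97 and -1.20), and CCN1 with NANOG shRNA (-1.24).

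Of 18 other feedback and output genes, 7 were higher and 4 lower with OCT4 shRNA, 5 and 0 with NANOG shRNA, and 1 and 2 with SOX2 shRNA, where 47.8%, 15.3% and 8.21% of all genes were called in either direction. ETV1, among those lower with OCT4 shRNA, was above background on 0 late arrays of either group. FLRT3, a membrane protein that promotes FGF signalling, was at 10.86 ± 0.66 (SD, n = 4) with OCT4 shRNA and 6.74 ± 0.37 (n = 4) in control cells, higher by 4.12 ± 0.37 (adjusted p = 9.65e-11). It was also higher with NANOG shRNA (1.63). Only 2 of the 4 late control arrays of FLRT3 were above background, so both sizes depend on a level near 6.57. ERRFI1, an inhibitor of EGF receptors, was higher by 1.98 and FLRT2 by 1.49 with OCT4 shRNA, and LRIG1, which limits ERBB receptors, was lower (-2.69). The receptor EPHA4 was higher with NANOG shRNA (2.85) and OCT4 shRNA (1.04) and lower with SOX2 shRNA (-0.75). CCND1, cyclin D1, was higher with NANOG shRNA (0.86) and SOX2 shRNA (0.84) and lower with OCT4 shRNA (-0.40). The phosphatase gene DUSP16 was lower with OCT4 shRNA (-0.99) and SOX2 shRNA (-0.79).

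At the top of the pathway, FGF2 itself was lower in all 3 knockdowns. It was at 9.75 ± 0.23 (SD, n = 4) late in control cells and at 7.47 ± 0.23 (n = 4) with OCT4 shRNA, a difference of -2.28 ± 0.16 (adjusted p = 5.2e-13). With NANOG shRNA the difference was -1.67 ± 0.18 (adjusted p = 5.17e-08) and with SOX2 shRNA -0.65 ± 0.16 (adjusted p = 0.00937). Of the 11 FGF ligands measured, 1 was higher and 4 lower with OCT4 shRNA, 0 and 2 with NANOG shRNA, and 1 and 1 with SOX2 shRNA, beside 47.8%, 15.3% and 8.21% of all genes called. Some of the OCT4 shRNA calls lie at background. FGF16, called lower, was above it on 0 late arrays of either group, and FGF8, called higher, on 0 late control arrays. Another of the lower ligands was above background on 0 late arrays with OCT4 shRNA. FGF13 was lower with NANOG shRNA (-0.88) and OCT4 shRNA (-0.74), and FGF9 was higher with SOX2 shRNA (0.78), with 3 of the 4 late control arrays above background.

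Of 14 growth factor receptors, 2 were higher and 6 lower with OCT4 shRNA, where 47.8% of all genes were called. FGFR4 (-2.43 ± 0.15), the receptor-like gene FGFRL1 (-1.23) and ERBB2 (-1.12) were lower, and EGFR was higher (1.11). With NANOG shRNA 1 was higher and 1 lower, and with SOX2 shRNA 2 and 2, where 15.3% and 8.21% of all genes were called. PDGFRB was higher in each arm (0.73, 0.70 and 1.22 with NANOG, OCT4 and SOX2 shRNA), and KIT was lower with OCT4 shRNA (-1.11) and SOX2 shRNA (-0.91), as was ERBB2 with SOX2 shRNA (-0.82). Of 20 genes of the cascade from RAS to ERK, 9 were higher and 5 lower with OCT4 shRNA and 2 and 2 in each of the other arms, against the same shares of all genes. Their sizes were smaller, such as 0.74 for HRAS, 0.67 for ARAF and -0.40 for MAP2K1, the gene of the kinase MEK1, with OCT4 shRNA, and 0.57 for MAPK3, the gene of ERK1, with NANOG shRNA.

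**Figure D4:**
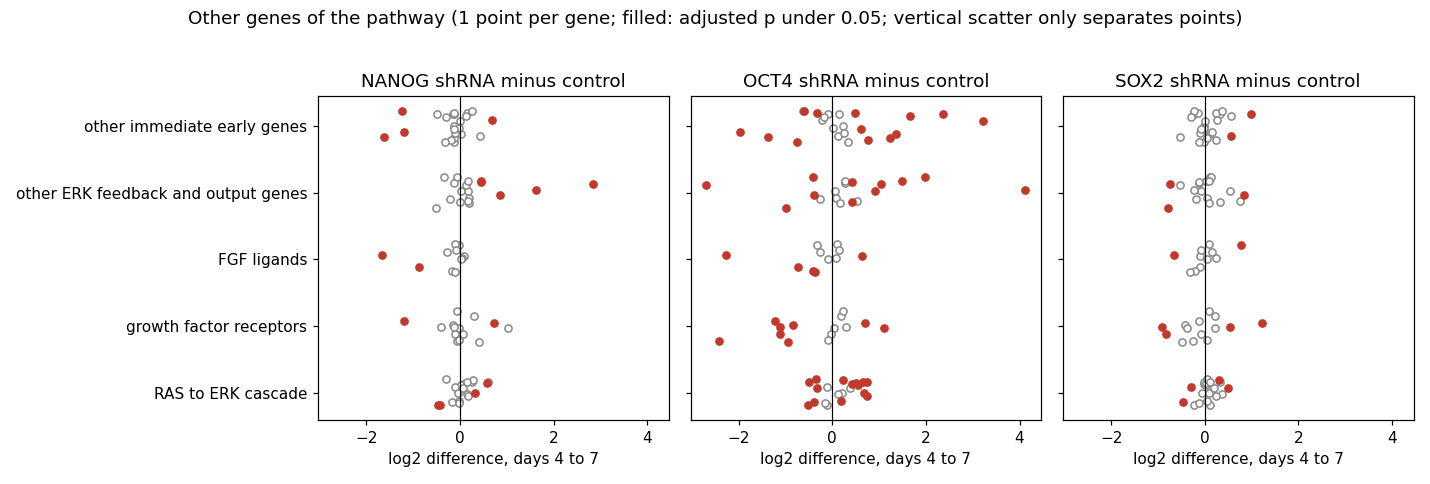
Late difference from control (log2, horizontal axis) of the other pathway genes by list, 1 point per gene, for each H1 knockdown arm. Filled points have an adjusted p under 0.05, and the vertical scatter only separates points. The widest spread is with OCT4 shRNA, from FLRT3 at 4.12, whose control level is near background, to LRIG1 at -2.69, and the cascade genes stay within a narrow band in each arm.

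In H9 cells, which had no control course, the same lists were read as changes between the first and the late days, and the genes named were chosen after their values were seen. IER3 fell by 1.80 ± 0.47, and DUSP5, an ERK phosphatase gene, fell by 2.12 ± 0.33. JUN rose by 1.01, FLRT3 by 1.5, EPHA4 by 1.56 and the receptor gene FGFR3 by 2.06, whereas FGF2 fell by 0.58 and MYC fell by 1.24. FLRT3 was above background on only 1 of its 2 first arrays (mean 6.77), so the size of its rise depends on a level near 6.57. Values of genes past the break in the H9 columns rest on moving these columns by 2 rows. In all, 3 of the 23 other immediate early genes rose and 5 fell, 2 of the 18 other feedback and output genes rose and 4 fell, 2 of the 11 ligands rose and 2 fell, 1 of the 14 receptors rose and 2 fell, and 0 of the 20 cascade genes rose and 4 fell. Over all genes 26.8% were called in this comparison.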

How the data were processed

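Per the labels' protocols, total RNA was isolated with Trizol, freed of DNA and amplified to biotinylated cRNA for Illumina bead arrays of 1 colour. The authors deposited linear intensities of 47323 probes on 40 arrays. How they made them (software, version, normalization) is not given in the sources used here. In the deposited intensities at least 98.4% of each column's values recur in the first column, as after quantile normalization, and array medians ranged from 135.613 to 135.68. Another table has 80 value columns with names that match no label, which were not used.

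Here normexp with offset 50 was applied to the deposited intensities before the log2 step, in limma 3.58.1 (R 4.3.3). The detection filter foreseen at first needed the unused columns. Its stand-in kept the 24940 probes brighter than 145 on 4 or more arrays, a level derived from 455 olfactory receptor probes. Of 30113 probes with 1 gene symbol, each gene kept its brightest passing probe, and 3740 of 13544 genes had several. From row 13059 of the probe order onward, the H9 values stood 2 rows early. There the mean levels of H9 and H1 correlated at 0.224 as deposited and at 0.99 after realignment, and 30 probes next to the break were dropped. The day 7 NANOG shRNA array (median intensity 6.8) was dropped too, which leaves 39 arrays.

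One limma fit of arm by window means (days 0 and 1, 2 and 3, 4 to 7) gave 15 comparisons, with Benjamini-Hochberg adjustment over all genes. A call is an adjusted p under 0.05, and every adjusted p is from limma. The fit was tested on simulated data, drawn independently for each array. That test cannot show how the fit behaves where the days of 1 course stand in for replicates. The number of arrays limits the precision. Nothing in the labels says that days come from separate cultures. The replicate number is the day in every arm, per the labels, which pairs the arrays. Same-day arrays of H1 deviated together at a median correlation of 0.143, from -0.12 to 0.45 over 45 pairs. Alternatives were another offset, no background correction, cyclic loess between arrays, no or stricter filters, averaged probes, array weights, day as a block, and leaving out each day or each array.

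The 10 genes, the pathway lists and the marker lists were chosen with earlier results of these data known. The genes named are these 10, the 3 targeted genes, up to 3 called genes in each direction from each pathway list and late difference, called genes of these lists in H9 (picked after their values were seen), and the nearest 3 genes by course to each of 3 genes.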

Additional observations from a re-analysis of the deposited data

Results flagged for a closer look

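Of 40 groups of 4 late arrays, 1 for each gene in each course with that many, 4 held an array far from the other 3, where chance gives about 1 in 20. SPRY2 was at 8.63 on day 6 in control cells, against 9.29 to 9.35 on the other late days. DUSP4 was at 6.41 on day 6 with SOX2 shRNA, below the background level, against 6.81 to 6.86. ETV5 was at 9.97 on day 5 with SOX2 shRNA, above the 9.62 to 9.67 of the other late days. SPRED1 was at 10.08 on day 5 in H9 cells, against 10.21 to 10.22.

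The change over time under OCT4 shRNA differed between the cell lines, by the test of the difference itself, for SPRY1 (1.57, H9 minus H1), ETV4 (1.55) and SPRY4 (1.46). Of these, the SPRY1 call held under all 55 alternatives.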

How the results depend on the processing

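Of 150 differences of the 10 genes, 50 were called; 28 calls held under all 55 alternatives, 22 were lost under at least 1, and 0 differences that were called changed sign. Of the differences not called, 21 were called under at least 1. Each arm is 1 course, the late window mixes days, and the values near background bound what can be read for DUSP4.

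Besides leaving out days or arrays, the settings that moved the number of the 10 genes called by over 1.5 times were these. With array weights it was 2 in place of 1 for the control arm over time, 3 in place of 1 for the NANOG shRNA arm over time and 5 in place of 2 for NANOG minus SOX2 shRNA. With an offset of 16 it was 0 for the NANOG shRNA arm over time, 0 for NANOG shRNA beyond control and 1 for NANOG minus SOX2 shRNA. With no filter on dim probes it was 0 and 1 for the first and the last of these, and with averaged probes it was 0 for NANOG shRNA beyond control. With day as a replicate block, paired by day, NANOG minus OCT4 shRNA gave 8 in place of 7 (ETV5 added), and the block changed no other call of the 10 genes.

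Leaving out a day or an array gave these ranges of calls among the 10 genes. The late difference from control gave 1 to 5 for NANOG, 6 to 8 for OCT4 and 1 to 2 for SOX2 shRNA. The change over time gave 0 to 1 for control, 0 to 2 for NANOG, 5 to 8 for OCT4 and 0 to 1 for SOX2 shRNA, and 3 to 5 in H9. The change beyond control gave 0 to 1 for NANOG, 3 to 4 for OCT4 and 0 to 0 for SOX2 shRNA, and H9 minus H1 gave 1 to 4. Between knockdowns it was 6 to 8 for NANOG minus OCT4, 1 to 2 for NANOG minus SOX2 and 5 to 7 for OCT4 minus SOX2 shRNA.

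The number of all genes called moved as well. With array weights it was 4750 in place of 2070 for the late NANOG shRNA difference, 2284 in place of 1112 for SOX2, 376 in place of 72 for control over time, 2787 in place of 1462 and 1768 in place of 936 for NANOG and SOX2 shRNA over time, 730 in place of 150 and 37 in place of 4 beyond control, and 4916 in place of 2432 for NANOG minus SOX2. With day as a block it was 260 for control over time and 309 and 8 beyond control, and with an offset of 16 it was 39 for control over time. Leaving out a day or an array gave 907 to 2255 for the late NANOG difference, 492 to 1263 for SOX2, 2 to 173 for control over time, 2 to 388 for NANOG beyond control and 1454 to 3703 for OCT4 beyond control. It also gave 521 to 1826 for NANOG, 140 to 1078 for SOX2 and 1969 to 3920 for H9 over time, 0 to 10 for SOX2 beyond control, 1789 to 4274 for H9 minus H1 and 1318 to 2622 for NANOG minus SOX2. Apart from fewer arrays when some were left out, the cause was not tested.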
